A study of Mus musculus with 13 samples.

Results

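Scavenger and particle uptake receptors are the surface proteins with which a macrophage binds inhaled particles, microbes, lipids and antibody-coated targets before engulfing them. The 10 genes described here were chosen by name, with earlier results of these data known. The genes are the scavenger receptors Marco, Msr1 and Scarb1 and the lectins Mrc1, Clec7a and Cd209b. Also listed are the endosomal scavenger receptor family protein Cd68, the Fc gamma receptors Fcgr1 and Fcgr3, and Tlr2. The listed genes are 10 of the 43430 genes counted, and all 10 were found by their mouse symbol. All 10 passed the filter on low counts, as did 11906 genes in all. Together they held between 0.554% and 0.671% of the counts of a library.

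The data are RNA-seq counts from alveolar macrophages sorted by flow cytometry out of lungs of 13 mice (C57Bl/6, all male, 10 weeks old), from a study of metformin and air pollution. Metformin PM mice (3 libraries, replicates 1, 3 and 4) drank metformin at 100 mg/kg/day, beginning 24 h before they received 10 µg of a standardized NIST particulate matter (PM) into the trachea. Vehicle PM mice (3 libraries) received the PM without metformin, metformin PBS mice (3 libraries, replicates 1, 3 and 4) received metformin and instilled PBS, and vehicle PBS mice (4 libraries) received neither agent. All lungs were harvested 24 h after instillation, so every group had been instilled. The labels call the replicates biological and do not say more of litters, cages or days. Serial numbers in the sample titles increase from group to group. If these numbers follow the order of processing, an effect of that order and an effect of treatment cannot be told apart.

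Alveolar macrophages live in the air spaces and clear what is inhaled. Class A scavenger receptors such as MARCO and MSR1 bind polyanionic surfaces, including many unopsonized particles, whereas Fc gamma receptors bind IgG and signal through the FcR gamma chain and the kinase SYK. Dectin-1 (Clec7a) and the mannose receptor (Mrc1) bind fungal and other glycans, and TLR2 senses bacterial lipoproteins and signals rather than engulfs.

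Libraries held 5.567 to 8.101 M counts (M, mega). Levels are given as scaled CPM, a gene's counts per M counts of its library after TMM scaling. The alveolar macrophage markers Siglecf and Chil3 were at 477 to 608 and 13344 to 19048 scaled CPM over the libraries, and all 12 alveolar macrophage markers passed the filter. The monocyte markers Ly6c2, Cx3cr1 and F13a1 stayed under 1 scaled CPM in every library, and the eosinophil genes Epx, Prg2 and Ccr3 were at 0. Of the 12 listed neutrophil markers Retnlg, Ly6g and Camp were at 0 and 4 passed the filter, and the list summed to 67.03 to 68.66 scaled CPM in metformin PM, 58.9 to 66.2 in vehicle PM, 62.2 to 65.5 in metformin PBS and 65.7 to 83.1 in vehicle PBS libraries. One of the 4, Mmp8, a secreted collagenase, was called higher with PM in metformin mice (0.43, edgeR adjusted p = 0.0498) and lower with metformin in PBS mice (-0.67, edgeR adjusted p = 0.00888), the directions that Marco took. The summed level of the 12 listed markers of monocytes and their macrophages, mostly Fn1, ranged over 2050 to 2487 scaled CPM in metformin PM, 2078 to 2969 in vehicle PM, 1683 to 2364 in metformin PBS and 1385 to 1764 in vehicle PBS libraries. Of the 7 of these genes that passed the filter, Itgam, Mmp12 and Mmp14 rose with PM in both drinking-water arms and Fn1 rose in the vehicle arm, so these named genes moved with PM as Marco and Msr1 did. The listed monocyte marker Ccr2 did not rise. It had 3.89 to 5.09 scaled CPM in metformin PM and 5.89 to 9.88 in metformin PBS libraries, without overlap. In vehicle PM libraries Ccr2 had 5.09 to 8.94 and in vehicle PBS libraries 6.79 to 9.81 scaled CPM. No gene of this list was called lower with PM. Interstitial macrophage markers, which include Pf4 and Lyve1, summed to 12.9 to 14.8, 8.19 to 9.27, 6.55 to 7.70 and 5.36 to 8.15 scaled CPM in metformin PM, vehicle PM, metformin PBS and vehicle PBS libraries. Summed endothelial markers were at 11.3 to 23.5, 5.65 to 13.8, 5.08 to 9.56 and 5.74 to 12.4 scaled CPM in these groups in this order. Of the 12 alveolar macrophage markers 4 rose and 3 fell with PM in metformin mice and 2 rose and 5 fell in vehicle mice, with Car4 and Atp6v0d2 higher and Siglecf, Ear1 and Ear2 lower in both arms. Of the 5 epithelial markers the surfactant genes Sftpc (log2 fold change 1.23), Sftpa1 (1.51) and Sftpb (1.26) rose with PM in metformin mice (edgeR adjusted p between 0.00422 and 0.0167). Epcam, the most abundant of these genes named here, fell there by 0.42 (edgeR adjusted p = 0.0272), to a mean of 104 scaled CPM in metformin PM mice, against 140 in metformin PBS mice. The endothelial markers Pecam1 (1.13) and Cldn5 (1.59) rose in metformin mice, and none of the epithelial or endothelial markers was called with PM in vehicle mice. Of 11 lymphocyte markers 3 passed the filter. The immunoglobulin genes Jchain and Igkc rose with PM by 3.88 and 2.94 in metformin mice and by 2.70 and 2.53 in vehicle mice, with Jchain at no more than 2.85 scaled CPM in any library. Cd2, at 262 to 286 scaled CPM in metformin PM and 302 to 327 in metformin PBS libraries, fell by 0.20 (edgeR adjusted p = 0.0150). The part of these cells in the results below was not tested, and in sorted bulk RNA fewer cells of a type and less RNA per cell cannot be told apart.

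Calls below are genes with a Benjamini-Hochberg adjusted p under 0.05 in edgeR's quasi-likelihood test, adjusted over all 11906 genes in each comparison; log2 fold changes are given ± SE. With PM in vehicle mice, 2 receptors rose and 1 fell. Of all tested genes 4.85% were called in that comparison, 2.6% higher and 2.26% lower. With PM in metformin mice, 5 receptors rose and 1 fell, beside 12.8% of all genes called, 7.18% higher and 5.6% lower. Metformin against vehicle gave 1 receptor higher and 1 lower with PBS, beside 3.07% of genes called, 1.13% higher and 1.93% lower. With PM it gave 2 higher and 1 lower, beside 6.89% of genes called, 4.08% higher and 2.81% lower. Their median log2 fold change in these 4 comparisons was -0.0031, 0.13, -0.13 and -0.12, against -0.0013, 0.0048, -0.0036 and -0.0040 for all tested genes. The PM and metformin comparisons share groups of libraries, so their values are not independent of each other. The plot of receptor levels by library shows each of the 13 values, and the plot of log2 fold changes shows where the calls fell.

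**Figure D1:**
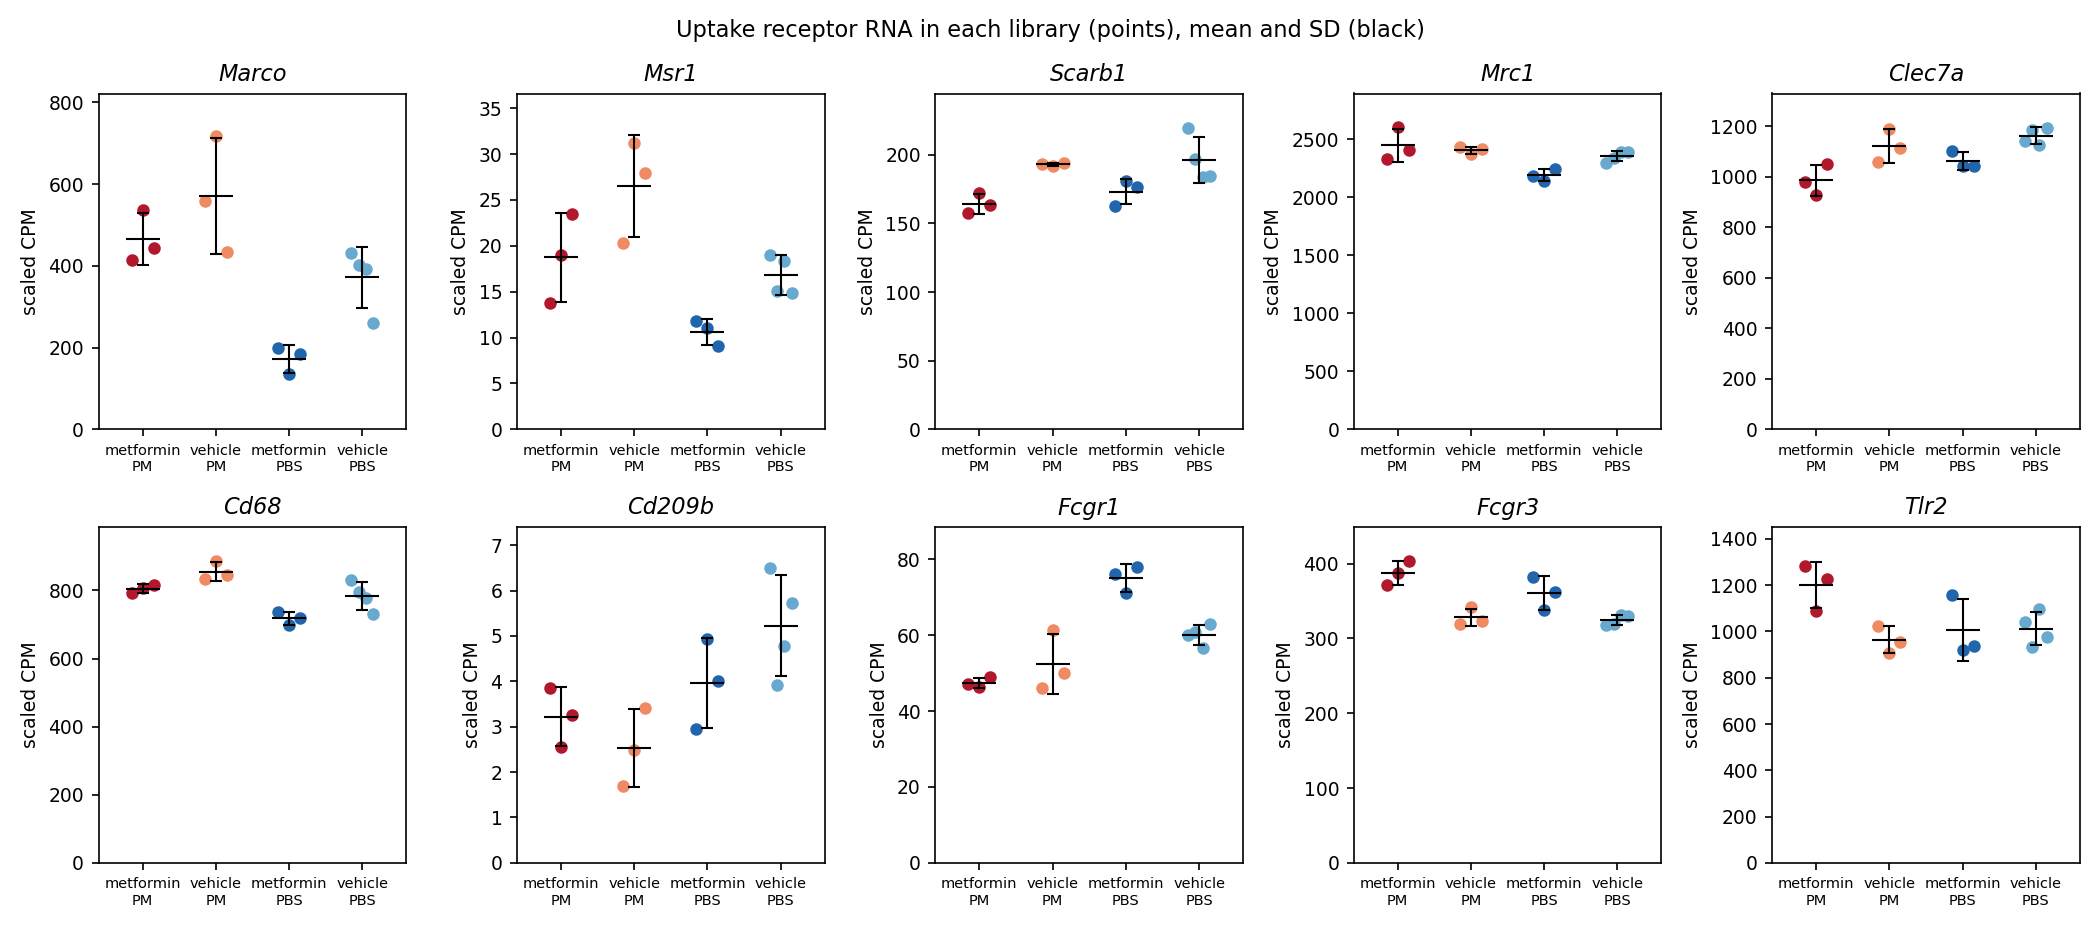
Scaled CPM (y axis, from 0) of each of the 10 uptake receptors in the 4 groups (x axis); each point is 1 library and black lines are the mean and SD. Marco and Msr1 lie lowest in metformin PBS mice, where Fcgr1 lies highest.

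**Figure D2:**
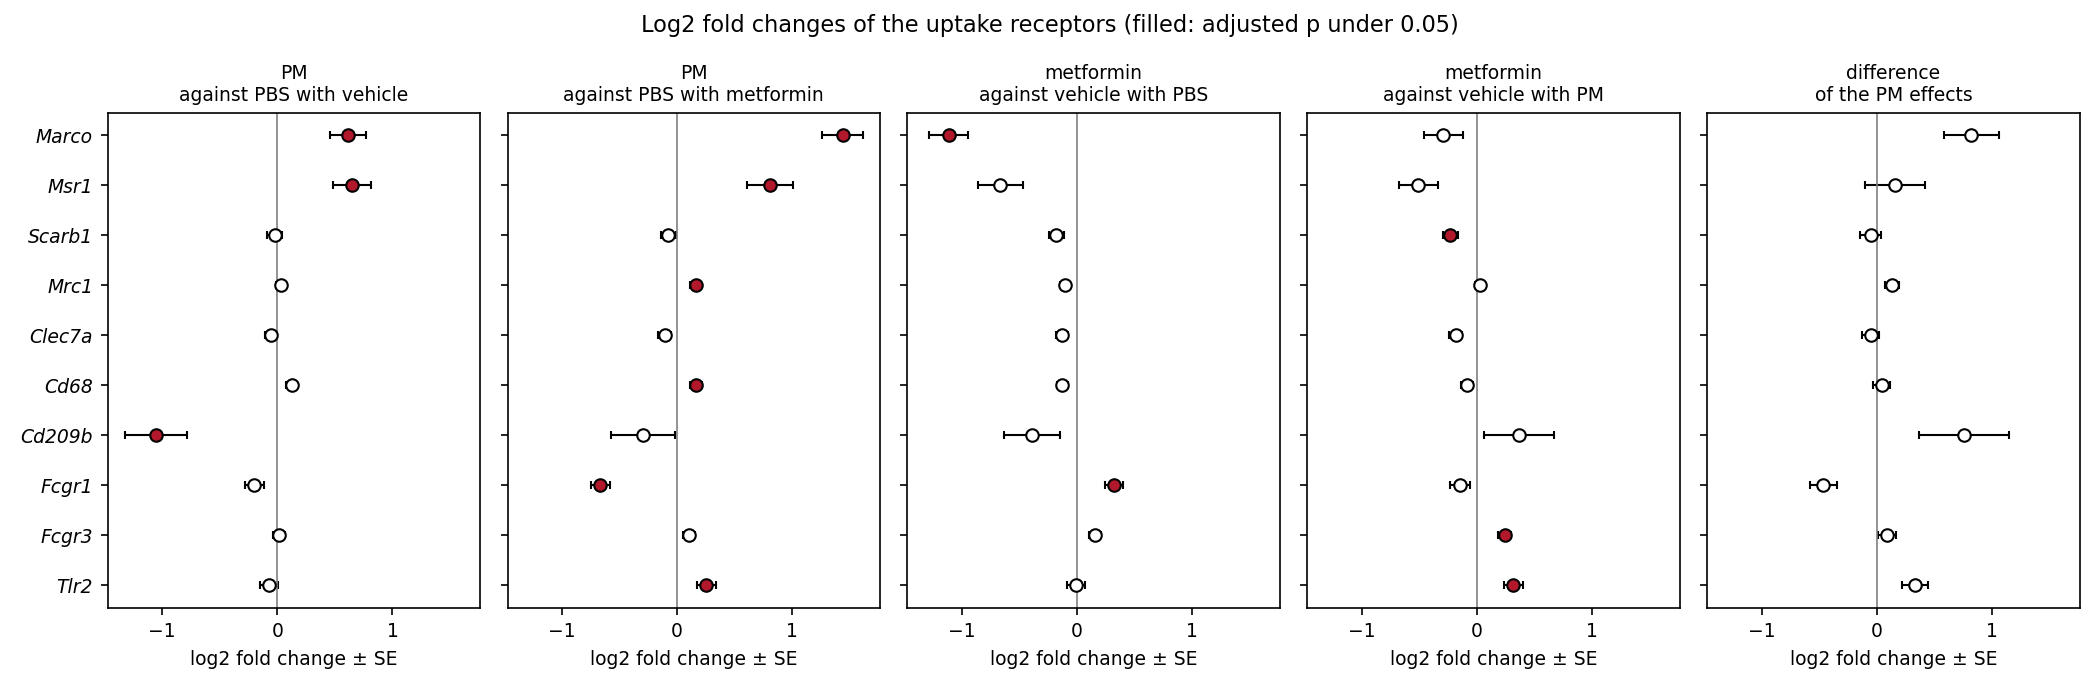
Log2 fold change ± SE (x axis) of each receptor (y axis) in the 4 comparisons and in the difference of the PM effects; filled points have an adjusted p under 0.05. Marco and Fcgr1 move in opposite directions with PM in metformin mice (1.44 and -0.67) and with metformin in PBS mice (-1.11 and 0.32).

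Marco encodes the macrophage receptor with collagenous structure, a class A scavenger receptor known for binding unopsonized particles and bacteria in the lung. The gene (ENSMUSG00000026390) lies on the minus strand at chr1:120474538-120505024 of mm10. It had 415, 536 and 444 scaled CPM in metformin PM libraries 1, 3 and 4, and 559, 718 and 434 in vehicle PM libraries 1, 2 and 3. It had 198, 135 and 183 scaled CPM in metformin PBS libraries 1, 3 and 4, and 431, 401, 393 and 261 in vehicle PBS libraries 1 to 4. The metformin PBS libraries lay below all 10 others, and in each arm every PM library lay above every PBS library. Vehicle PBS library 4 and vehicle PM library 2 were the lowest and highest of their groups.

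In metformin mice PM raised Marco 2.70-fold, a log2 fold change of 1.44 ± 0.18 (edgeR adjusted p = 1.84e-05). In vehicle mice Marco rose with PM by 0.62 ± 0.16 on the log2 scale (edgeR adjusted p = 0.0248). The call in vehicle mice was lost with DESeq2 (0.62, adjusted p = 0.0868) and without vehicle PBS library 4 (0.48), vehicle PM library 1 (0.63) or vehicle PM library 2 (0.41). Metformin lowered Marco 2.16-fold in PBS mice, a log2 fold change of -1.11 ± 0.17 (edgeR adjusted p = 0.00245). The calls in metformin mice and in PBS mice held under DESeq2, limma-voom, both other scalings, both other filters, the fit of the compared groups alone, the replicate block and without each library in turn. In PM mice the difference between metformin and vehicle was -0.29 ± 0.17, with overlapping groups (edgeR adjusted p = 0.351). With no filter on low counts it passed the test (-0.30, edgeR adjusted p = 4.90e-05). The PM effect was larger in metformin mice by 0.82 ± 0.24 on the log2 scale, which missed the threshold (edgeR adjusted p = 0.103). That difference passed with no filter (0.81, edgeR adjusted p = 1.21e-17) and with the replicate block (0.91, edgeR adjusted p = 0.0352). It also passed without vehicle PBS library 4 (0.95) or vehicle PM library 2 (1.01). With no filter both log2 fold changes hardly moved, and the cause of these passes was not tested.

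Marco and Fcgr1 had the lowest adjusted p of the 10 receptors and moved in opposite directions with PM in metformin mice, so their promoters are shown. Each window runs from 250 bases before to 50 bases after the RefSeq gene start in GRCm38.p6, 5′ to 3′ on the minus strand, at chr1:120504975-120505274 for Marco and chr3:96293920-96294219 for Fcgr1. Capitals mark GAGGAA, the core bound by PU.1, the transcription factor of the macrophage lineage; either strand counts as a match.
Marco: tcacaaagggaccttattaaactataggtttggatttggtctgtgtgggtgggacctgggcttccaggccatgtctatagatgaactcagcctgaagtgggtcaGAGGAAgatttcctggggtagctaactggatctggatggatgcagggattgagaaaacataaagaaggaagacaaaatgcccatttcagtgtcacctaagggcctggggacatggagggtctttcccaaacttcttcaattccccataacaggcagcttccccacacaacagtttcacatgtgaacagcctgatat
Fcgr1: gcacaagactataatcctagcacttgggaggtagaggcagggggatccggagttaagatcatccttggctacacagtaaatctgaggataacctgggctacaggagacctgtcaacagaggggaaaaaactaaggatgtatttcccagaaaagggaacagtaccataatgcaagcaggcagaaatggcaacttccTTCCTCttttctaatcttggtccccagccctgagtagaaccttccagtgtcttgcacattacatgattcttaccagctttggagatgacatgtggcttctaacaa
GAGGAA stands at -146 to -141 from the start in Marco, and on the minus strand of the window at -55 to -50 in Fcgr1. It is found once in each window. The table held 10 promoters of 8 of the 10 receptors, with overlapping pairs for Clec7a and Fcgr3. GAGGAA was found for 6 of these 8 genes (Cd68, Clec7a, Fcgr1, Fcgr3, Marco and Mrc1) and in 8 of their 10 promoters, beside 31.3% of 27025 genes and 28.3% of 32851 promoters of this length in RefSeq. TGACNNNGC, the core of the antioxidant response element bound by NRF2, is in 12.4% of all promoters and in 1 of these 10, that of Cd209b. TGANTCA, the AP-1 site, is in 7.81% and in 1 of these 10, that of Cd68. These matches describe letters in the windows and carry no measurement of binding.

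Msr1 encodes the macrophage scavenger receptor SR-A, which takes up modified lipoproteins and polyanionic particles. The gene (ENSMUSG00000025044, chr8:39581700-39642678, minus strand) was a low-level transcript, with 13.8, 19.0 and 23.5 scaled CPM in metformin PM and 20.3, 31.3 and 27.96 in vehicle PM libraries. It had 11.8, 11.0 and 9.09 scaled CPM in metformin PBS and 19.0, 15.04, 18.3 and 14.8 in vehicle PBS libraries. As for Marco, all PM libraries lay above all PBS libraries within each arm, and metformin PBS libraries were the lowest. Msr1 rose with PM by 0.81 ± 0.20 in metformin mice (edgeR adjusted p = 0.00983) and by 0.65 ± 0.16 in vehicle mice (edgeR adjusted p = 0.0225). The call in metformin mice was lost without metformin PBS library 4 (0.70) or metformin PM library 4 (0.62). The call in vehicle mice was lost without vehicle PBS library 2 (0.60), vehicle PBS library 4 (0.60), vehicle PM library 2 (0.51) or vehicle PM library 3 (0.61).

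With metformin, Msr1 differed from vehicle by -0.67 ± 0.19 in PBS mice (edgeR adjusted p = 0.0653), without overlap of the libraries, and by -0.51 ± 0.17 in PM mice, with overlap (edgeR adjusted p = 0.0771). In PBS mice it passed with DESeq2 (-0.66, adjusted p = 0.0238), no filter (-0.66) and the 2 groups alone (-0.66), and without vehicle PM library 1, metformin PM library 1 or metformin PM library 4 (-0.66 each). In PM mice it passed with no filter (-0.52) and without vehicle PM library 1 (-0.68) or metformin PM library 4 (-0.69). The PM effects of the 2 arms differed by 0.16 ± 0.26 for Msr1 (edgeR adjusted p = 0.885), and by -0.019 without vehicle PM library 1 and -0.028 without metformin PM library 4. Marco and Msr1 thus had the same order of group means, vehicle PM, metformin PM, vehicle PBS and metformin PBS from high to low. For both genes the metformin PM libraries overlapped those of vehicle PM and of vehicle PBS. The libraries therefore do not fix the place of metformin PM in this order.

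Scarb1 encodes SR-B1, the class B receptor that takes up cholesterol esters from HDL. The gene (ENSMUSG00000037936, chr5:125277087-125341094, minus strand) had 158, 172 and 163 scaled CPM in metformin PM and 193, 192 and 194 in vehicle PM libraries. It had 163, 181 and 176 scaled CPM in metformin PBS and 219, 197, 183 and 185 in vehicle PBS libraries. Metformin libraries lay below vehicle libraries with either instillate, and PM and PBS libraries overlapped in either arm. With PM, Scarb1 was lower with metformin, with a log2 fold change of -0.23 ± 0.07 (edgeR adjusted p = 0.0374). That call was lost with the replicate block (-0.23, adjusted p = 0.118) and without vehicle PBS library 2 (-0.23), vehicle PM library 1 (-0.24), vehicle PM library 2 (-0.24), vehicle PM library 3 (-0.24), metformin PM library 1 (-0.21) or metformin PM library 4 (-0.23). With PBS the difference was -0.18 ± 0.06 (edgeR adjusted p = 0.128). PM against PBS gave -0.08 ± 0.07 in metformin mice (edgeR adjusted p = 0.514) and -0.02 ± 0.06 in vehicle mice (edgeR adjusted p = 0.903), the second at 0.035 without vehicle PBS library 1.

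Mrc1, the mannose receptor CD206, binds mannosylated glycoproteins and is abundant on resident alveolar macrophages. The gene (ENSMUSG00000026712, chr2:14229392-14332057, plus strand), which overlaps the microRNA gene Mir511 with 6 counts in all, had 2328, 2610 and 2412 scaled CPM in metformin PM and 2431, 2374 and 2419 in vehicle PM libraries. It had 2187, 2140 and 2245 scaled CPM in metformin PBS and 2299, 2344, 2390 and 2392 in vehicle PBS libraries. The metformin PBS libraries were again below all others. Mrc1 rose by 0.16 ± 0.05 with PM in metformin mice (edgeR adjusted p = 0.0286), a call lost in the fit of those 2 groups alone (0.15). Without 1 library it was lost for metformin PBS library 1 (0.15), metformin PBS library 3 (0.14), metformin PBS library 4 (0.18), vehicle PM library 1 (0.15), vehicle PM library 3 (0.15), metformin PM library 3 (0.10) and metformin PM library 4 (0.16). In vehicle mice PM gave 0.03 ± 0.04 (edgeR adjusted p = 0.801). Metformin against vehicle gave -0.11 ± 0.04 with PBS (edgeR adjusted p = 0.213), and with PM 0.03 ± 0.05 (edgeR adjusted p = 0.829), which was -0.028 without metformin PM library 3.

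Clec7a encodes dectin-1, the beta-glucan receptor of fungal recognition. The gene (ENSMUSG00000079293, chr6:129461591-129472777, minus strand) had 981, 927 and 1050 scaled CPM in metformin PM and 1057, 1191 and 1115 in vehicle PM libraries. It had 1103, 1041 and 1043 scaled CPM in metformin PBS and 1143, 1186, 1127 and 1194 in vehicle PBS libraries. With each instillate the metformin libraries lay below the vehicle libraries. Metformin against vehicle gave -0.18 ± 0.06 with PM (edgeR adjusted p = 0.0505) and -0.13 ± 0.05 with PBS (edgeR adjusted p = 0.190). With PM it passed under DESeq2 (-0.19, adjusted p = 0.0300), limma-voom (-0.19), RLE scaling (-0.19) and no filter (-0.19), and without metformin PBS library 1 (-0.19), vehicle PM library 1 (-0.23) or metformin PM library 4 (-0.23). PM against PBS gave -0.11 ± 0.06 in metformin mice (edgeR adjusted p = 0.232) and -0.05 ± 0.05 in vehicle mice (edgeR adjusted p = 0.692).

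Cd209b, also named SIGNR1, is a C-type lectin that binds bacterial capsular polysaccharides and belongs to a cluster of closely related genes, among which short reads could be split. The gene (ENSMUSG00000065987, chr8:3917655-3926844, minus strand) was barely detected, with 31, 20 and 21 raw counts in metformin PM, 12, 16 and 21 in vehicle PM, 18, 31 and 26 in metformin PBS and 41, 25, 30 and 32 in vehicle PBS libraries. This was 3.85, 2.55 and 3.27 scaled CPM in metformin PM and 1.70, 2.49 and 3.41 in vehicle PM libraries. It was 2.95, 4.94 and 4.00 scaled CPM in metformin PBS and 6.49, 3.92, 4.78 and 5.72 in vehicle PBS libraries. In vehicle mice all PM libraries lay below all PBS libraries, and in metformin mice the libraries overlapped. Cd209b fell by 1.06 on the log2 scale with PM in vehicle mice (SE 0.27, edgeR adjusted p = 0.0245), and gave -0.30 ± 0.28 in metformin mice (edgeR adjusted p = 0.549). The call was lost with the replicate block (-1.02, adjusted p = 0.0600) and without vehicle PBS library 1 (-0.93), vehicle PBS library 4 (-1.01), vehicle PM library 1 (-0.82) or vehicle PM library 2 (-1.06). Metformin against vehicle gave 0.36 ± 0.30 with PM (edgeR adjusted p = 0.553) and -0.39 ± 0.25 with PBS (edgeR adjusted p = 0.436). The 2 PM effects differed by 0.76 ± 0.39 (edgeR adjusted p = 0.474).

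Cd68 encodes macrosialin, a heavily glycosylated protein of endosomes and lysosomes that is used as a macrophage marker. The gene (ENSMUSG00000018774, chr11:69664213-69666153, minus strand) had 791, 807 and 817 scaled CPM in metformin PM and 832, 887 and 846 in vehicle PM libraries. It had 737, 699 and 719 scaled CPM in metformin PBS and 832, 796, 779 and 731 in vehicle PBS libraries. PM libraries lay above PBS libraries in each arm, with under 1 scaled CPM between the closest libraries in vehicle mice. Cd68 rose by 0.16 ± 0.05 with PM in metformin mice (edgeR adjusted p = 0.0412) and gave 0.12 ± 0.05 in vehicle mice (edgeR adjusted p = 0.172). The call in metformin mice was lost with RLE scaling (0.16), no filter (0.16), the replicate block (0.16) and the 2 groups alone (0.16). It was also lost without vehicle PBS library 2 (0.16), metformin PBS library 3 (0.14), metformin PBS library 4 (0.16), vehicle PM library 1 (0.15), vehicle PM library 3 (0.15), metformin PM library 1 (0.17), metformin PM library 3 (0.15) or metformin PM library 4 (0.14). Metformin against vehicle gave -0.09 ± 0.05 with PM (edgeR adjusted p = 0.366) and -0.13 ± 0.05 with PBS (edgeR adjusted p = 0.166).

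Fcgr1 encodes CD64, the high-affinity receptor for monomeric IgG, and is known as an interferon-gamma target. The gene (ENSMUSG00000015947, chr3:96282909-96293969, minus strand), whose promoter is printed beside that of Marco, had 47.0, 46.4 and 48.9 scaled CPM in metformin PM and 46.1, 61.3 and 50.1 in vehicle PM libraries. It had 76.3, 71.0 and 78.1 scaled CPM in metformin PBS and 60.0, 60.9, 56.6 and 62.9 in vehicle PBS libraries. The metformin PBS libraries lay above all 10 others, and the metformin PM libraries were close together near the low end. In metformin mice Fcgr1 fell by 0.67 on the log2 scale with PM (SE 0.08, edgeR adjusted p = 2.57e-05), that is 1.59-fold lower, and this call held under the same alternatives as that of Marco. In vehicle mice PM gave -0.20 ± 0.08 with overlapping libraries (edgeR adjusted p = 0.211), and the gene was called without vehicle PM library 2 (-0.33, adjusted p = 0.0194).

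In PBS mice metformin raised Fcgr1 by 0.32 ± 0.08 (edgeR adjusted p = 0.0275), a comparison that uses the same metformin PBS libraries as the fall with PM. This call was lost without vehicle PBS library 1 (0.32), vehicle PBS library 2 (0.33), vehicle PBS library 3 (0.30), metformin PBS library 1 (0.32) or metformin PBS library 4 (0.29). In PM mice metformin gave -0.14 ± 0.09 (edgeR adjusted p = 0.381). The PM effect on Fcgr1 was lower in metformin mice by 0.47 on the log2 scale, a difference of -0.47 ± 0.12 that missed the threshold (edgeR adjusted p = 0.0536). It passed with DESeq2 (-0.48, adjusted p = 0.0399), RLE scaling (-0.48), no filter (-0.48), the stricter filter (-0.47) and the replicate block (-0.47), and without vehicle PBS library 4 (-0.49) or vehicle PM library 1 (-0.57).

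Fcgr3 encodes CD16, a low-affinity activating IgG receptor. The gene (ENSMUSG00000059498, chr1:171051174-171064935, minus strand) had 372, 388 and 404 scaled CPM in metformin PM and 320, 342 and 323 in vehicle PM libraries. It had 383, 338 and 362 scaled CPM in metformin PBS and 318, 319, 331 and 330 in vehicle PBS libraries. With either instillate all metformin libraries lay above all vehicle libraries, and PM and PBS libraries overlapped. With PM, metformin raised Fcgr3 by 0.24 ± 0.05 (edgeR adjusted p = 0.0100), a call lost without vehicle PM library 1 (0.22), vehicle PM library 3 (0.22) or metformin PM library 4 (0.21). With PBS the difference was 0.15 ± 0.05 (edgeR adjusted p = 0.115). PM against PBS gave 0.10 ± 0.05 in metformin mice (edgeR adjusted p = 0.241) and 0.02 ± 0.05 in vehicle mice (edgeR adjusted p = 0.915), the second at -0.017 without vehicle PM library 2.

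Fcgr2b, the inhibitory IgG receptor and the counterpart of Fcgr3, was called higher with PM in both arms, as was no other gene on the list of Fc receptors and partners. It had 237, 286 and 255 scaled CPM in metformin PM and 196, 257 and 241 in vehicle PM libraries, against 160, 148 and 152 in metformin PBS and 123, 122, 120 and 118 in vehicle PBS libraries. All PM libraries lay above all PBS libraries. It rose by 0.76 ± 0.08 in metformin mice (edgeR adjusted p = 4.47e-06) and by 0.94 ± 0.08 in vehicle mice (edgeR adjusted p = 3.38e-07). Fcgr2b was also called higher with metformin in PBS mice, by 0.34 ± 0.08 (edgeR adjusted p = 0.0219). That call was lost, for example, without vehicle PBS library 1 or metformin PBS library 4. Per length of exon, Fcgr2b stood at 0.200 ± 0.018 of the level of Fcgr3 in metformin PM, 0.211 ± 0.023 in vehicle PM, 0.127 ± 0.003 in metformin PBS and 0.112 ± 0.004 in vehicle PBS mice (SD, n = 3, 3, 3 and 4). The lowest ratio with PM was 0.184 and the highest with PBS was 0.131, as the panel of ratios in the Fc receptor plot shows. Fcgr2b and Fcgr3 have near-identical extracellular exons, so the split of reads between them is uncertain. Fcgrt, the neonatal Fc receptor that recycles IgG, fell with PM by 0.37 on the log2 scale in metformin mice (SE 0.06, edgeR adjusted p = 3.21e-04) and by 0.34 in vehicle mice (SE 0.06, edgeR adjusted p = 7.34e-04). Fcer1g, the signalling chain of Fcgr1 and Fcgr3, ranged over 407 to 446 scaled CPM in metformin PM, 386 to 435 in vehicle PM, 381 to 411 in metformin PBS and 378 to 401 in vehicle PBS libraries, and was not called in any comparison. Syk, the kinase downstream of these receptors and of dectin-1, had 740 to 757 scaled CPM in metformin PM, 673 to 705 in vehicle PM, 676 to 685 in metformin PBS and 599 to 658 in vehicle PBS libraries, and was not called in any comparison. Card9, another listed partner, fell by 0.32 with PM in metformin mice (SE 0.10, edgeR adjusted p = 0.0357). In vehicle mice PM gave 0.05 ± 0.09 for Card9 (edgeR adjusted p = 0.847). Fcgr4, another activating IgG receptor, fell by 0.40 with PM in vehicle mice (SE 0.10, edgeR adjusted p = 0.0182), a call lost without vehicle PBS library 2 (-0.38), vehicle PM library 1 (-0.34) or vehicle PM library 3 (-0.35).

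**Figure D3:**
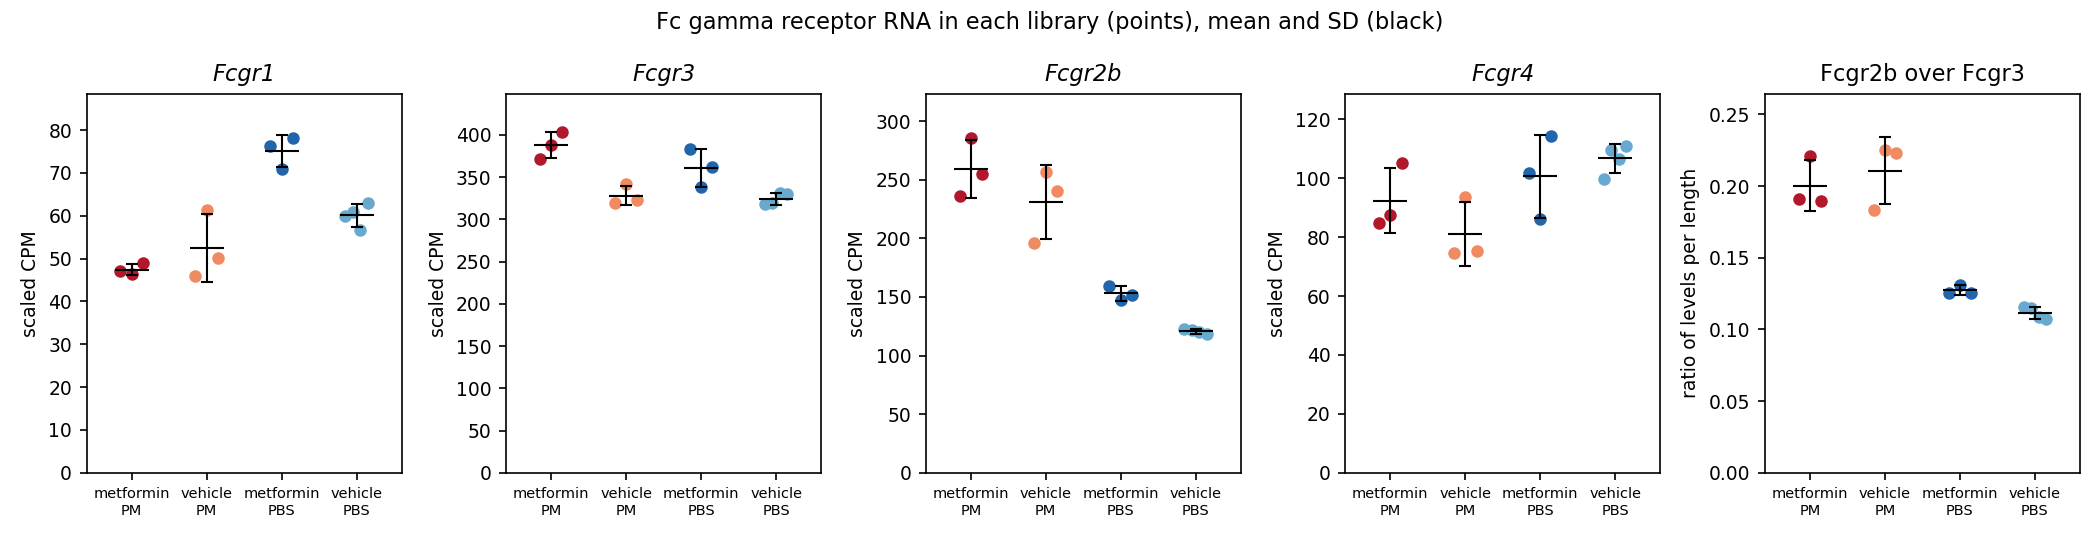
Scaled CPM (y axis, from 0) of 4 Fc gamma receptor genes and the ratio of Fcgr2b to Fcgr3 per length in the 4 groups (x axis); points are libraries and black lines the mean and SD. The ratio with PM (0.184 to 0.225) lies above that with PBS (0.108 to 0.131).

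Tlr2 encodes the Toll-like receptor for bacterial lipoproteins, which works as a heterodimer with TLR1 or TLR6. The gene (ENSMUSG00000027995, chr3:83836272-83841767, minus strand) had 1282, 1090 and 1227 scaled CPM in metformin PM and 1026, 909 and 956 in vehicle PM libraries. It had 1160, 919 and 939 scaled CPM in metformin PBS and 1043, 934, 1098 and 974 in vehicle PBS libraries. With PM all metformin libraries lay above all vehicle libraries, and every other pair of groups overlapped. Metformin raised Tlr2 by 0.32 ± 0.08 with PM (edgeR adjusted p = 0.0238) and gave -0.01 ± 0.08 with PBS (edgeR adjusted p = 0.968). The call with PM was lost without vehicle PM library 2 (0.27), vehicle PM library 3 (0.30), metformin PM library 1 (0.26) or metformin PM library 4 (0.30). The value with PBS was above 0 without vehicle PBS library 1 (0.0049), vehicle PBS library 3 (0.032), metformin PBS library 3 (0.055) or metformin PBS library 4 (0.038).

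In metformin mice Tlr2 rose with PM by 0.25 ± 0.08 (edgeR adjusted p = 0.0476), and in vehicle mice PM gave -0.07 ± 0.08 (edgeR adjusted p = 0.726). The call in metformin mice was lost with RLE scaling (0.25), the stricter filter (0.25) and the 2 groups alone (0.25). Of the 13 fits that left out 1 library, 10 lost it: those without vehicle PBS library 1 (0.25), vehicle PBS library 2 (0.25), vehicle PBS library 4 (0.25), metformin PBS library 3 (0.19), metformin PBS library 4 (0.21), vehicle PM library 1 (0.24), vehicle PM library 2 (0.25), vehicle PM library 3 (0.24), metformin PM library 1 (0.19) or metformin PM library 4 (0.23). The 2 PM effects on Tlr2 differed by 0.33 ± 0.11 (edgeR adjusted p = 0.205), and passed with no filter (0.31) and without metformin PBS library 1 (0.43). Of its partners, Tlr6 was at 11.2 to 15.8 scaled CPM over all libraries and Tlr1 was at most 0.470 scaled CPM and too low to test.

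None of the 10 receptors passed edgeR's test of the difference between the PM effects, beside 1.44% of all genes called there, 0.89% higher and 0.546% lower. At an unadjusted p under 0.05 there were 3, Marco, Fcgr1 and Tlr2, and DESeq2 called 1, Fcgr1. The number called was 1 with RLE scaling or the stricter filter, 3 with no filter and 2 with the replicate block, and it was 2 without vehicle PBS library 4 and 1 without metformin PBS library 1, vehicle PM library 1 or vehicle PM library 2. The counts of the 4 simple comparisons also depended on single libraries. With PM in metformin mice the count of 6 became 3 without metformin PBS library 3, vehicle PM library 1 or vehicle PM library 3, and 2 without metformin PBS library 4 or metformin PM library 4. With PM in vehicle mice the count of 3 became 0 without vehicle PBS library 4, and 1 without vehicle PM library 1 or vehicle PM library 2. Without vehicle PM library 2, Marco, Msr1 and Cd209b all lost their calls, and the 1 called was Fcgr1. For metformin with PM the count of 3 became 0 without vehicle PM library 3 and 1 without vehicle PM library 2 or metformin PM library 1. Without metformin PM library 4, Scarb1, Fcgr3 and Tlr2 all lost their calls, and Msr1 and Clec7a were called instead. Without vehicle PM library 1, Scarb1 and Fcgr3 lost theirs, and Msr1 and Clec7a were called. For metformin with PBS the count of 2 became 1 without vehicle PBS library 1, 2 or 3, or metformin PBS library 1 or 4.

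Levels of different receptors were compared per kb of exon, from the union of the exons in GENCODE M21. In vehicle PBS mice Cd68 had the highest level at 624 ± 33.3 scaled CPM per kb, then Clec7a at 441 ± 12.4, Mrc1 at 370 ± 6.96 and Tlr2 at 336 ± 24.1 (SD, n = 4). Marco at 193 ± 39.1 and Fcgr3 at 187 ± 4.04 followed, then Fcgr1 at 23.2 ± 1.02 and Scarb1 at 23.1 ± 1.95, and last Msr1 at 2.65 ± 0.342 and Cd209b at 2.47 ± 0.528 scaled CPM per kb. The ranges of Mrc1 and Tlr2, of Marco and Fcgr3, of Fcgr1 and Scarb1, and of Msr1 and Cd209b overlapped, so these neighbours were not ordered by their libraries. In metformin PBS mice Marco stood at 89.3 ± 17.3, below Fcgr3 at 208 ± 12.99 scaled CPM per kb and with no overlap (SD, n = 3). In the other groups the mean of Marco lay above that of Fcgr3, with overlapping ranges in metformin PM and vehicle PBS mice. In metformin PM mice Tlr2 had the second highest mean, 398 ± 32.8 scaled CPM per kb, with ranges that overlapped those of Mrc1. The order of the upper genes rests on the gene length: with the deposited length, which at 2850 bases exceeds the 1941 bases that Cd68 spans, Cd68 came below both Tlr2 and Mrc1 in every group. The plot of levels per length shows the 10 receptors in this order.

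**Figure D4:**
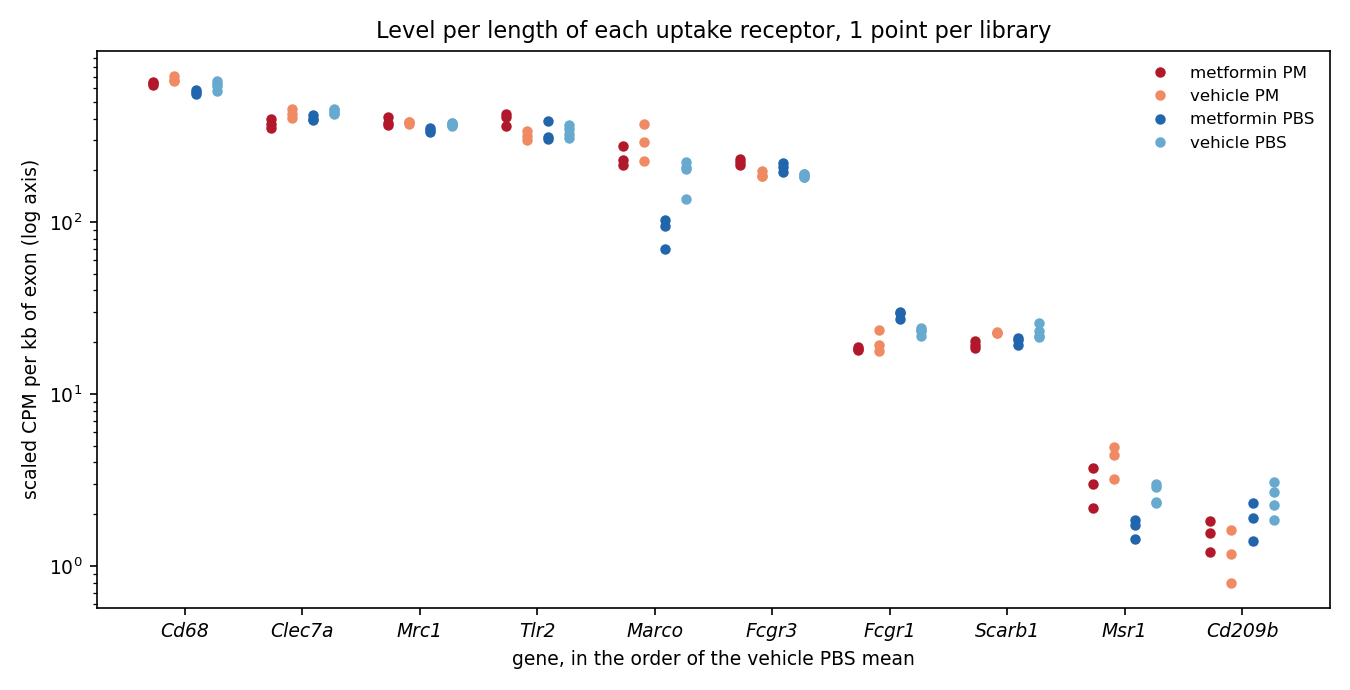
Scaled CPM per kb of exon (y axis, log scale) of each receptor (x axis, in the order of its mean in vehicle PBS mice); each point is 1 library, coloured by group. Marco in metformin PBS mice (89.3 on average) lies apart from Marco in the other groups, and from Fcgr3.

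The tested genes whose levels were most like those of Marco over the 13 libraries were Slc31a1, a copper importer (Pearson r = 0.965), Ran, a nuclear transport GTPase (0.952), and Mthfd2, a mitochondrial folate enzyme (0.947). Those most like Fcgr1 were Irf8, a transcription factor of the mononuclear phagocyte lineage (r = 0.948), Nfam1 (0.931) and Rgs2, a regulator of G protein signalling (0.928). Those most like Msr1 were Prdx4, a peroxiredoxin of the endoplasmic reticulum (r = 0.967), Eps8 (0.932) and Eif2s2, a subunit of the translation initiation factor eIF2 (0.929). These correlations of log2 CPM describe libraries that share their group differences.

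Other uptake and recognition receptors and their partners were followed in 5 lists of 84 genes, 55 of which passed the filter. These lists too were chosen with earlier results of these data known. With PM in metformin mice 10 of the 55 rose and 5 fell, with a median log2 fold change of 0.0072, beside 7.18% of all tested genes called higher and 5.6% lower. With PM in vehicle mice 7 rose and 4 fell, with a median of 0.039, beside 2.6% and 2.26% of all genes. Metformin against vehicle gave 5 higher and 5 lower with PM, and 2 higher and 1 lower with PBS, with medians of 0.028 and -0.00095. Of all genes 4.08% were higher and 2.81% lower with PM, and 1.13% higher and 1.93% lower with PBS. With PM the count of 10 called became 6 without vehicle PM library 1, 4 without vehicle PM library 2, 5 without vehicle PM library 3, 5 without metformin PM library 1, 6 without metformin PM library 3 and 5 without metformin PM library 4, and 5 with the replicate block. With PBS the count of 3 became 1 without vehicle PBS library 1, 5 without vehicle PBS library 3 and 0 without metformin PBS library 4, and 6 with no filter.

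The C-type lectins Clec4d (MCL) and Clec4e (Mincle), which pair in sensing mycobacterial glycolipids and damaged cells, rose with PM in both arms. Clec4e had 133, 150 and 149 scaled CPM in metformin PM and 143, 132 and 153 in vehicle PM libraries, against 88.6, 60.7 and 65.0 in metformin PBS and 72.6, 56.4, 93.3 and 62.9 in vehicle PBS libraries. Clec4d averaged 48.7 ± 3.37 in metformin PM, 44.3 ± 10.4 in vehicle PM, 18.8 ± 5.77 in metformin PBS and 17.6 ± 1.75 scaled CPM in vehicle PBS mice (SD, n = 3, 3, 3 and 4). For both lectins the PM libraries lay above the PBS libraries in each arm. Clec4e rose by 1.02 ± 0.14 in metformin mice (edgeR adjusted p = 5.27e-05) and by 0.997 ± 0.13 in vehicle mice (edgeR adjusted p = 5.85e-05), and Clec4d by 1.38 ± 0.16 (edgeR adjusted p = 1.34e-05) and 1.33 ± 0.16 (edgeR adjusted p = 2.17e-05) in the same 2 arms. Cxcl16, which as a membrane protein is the scavenger receptor SR-PSOX, rose by 1.26 ± 0.20 in metformin mice (edgeR adjusted p = 2.77e-04) and by 0.98 ± 0.20 in vehicle mice (edgeR adjusted p = 0.00445). Itgam, the alpha chain of complement receptor 3 and also a listed monocyte marker, rose by 1.67 ± 0.20 in metformin mice (edgeR adjusted p = 1.17e-05) and by 1.36 ± 0.17 in vehicle mice (edgeR adjusted p = 5.01e-05).

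**Figure D5:**
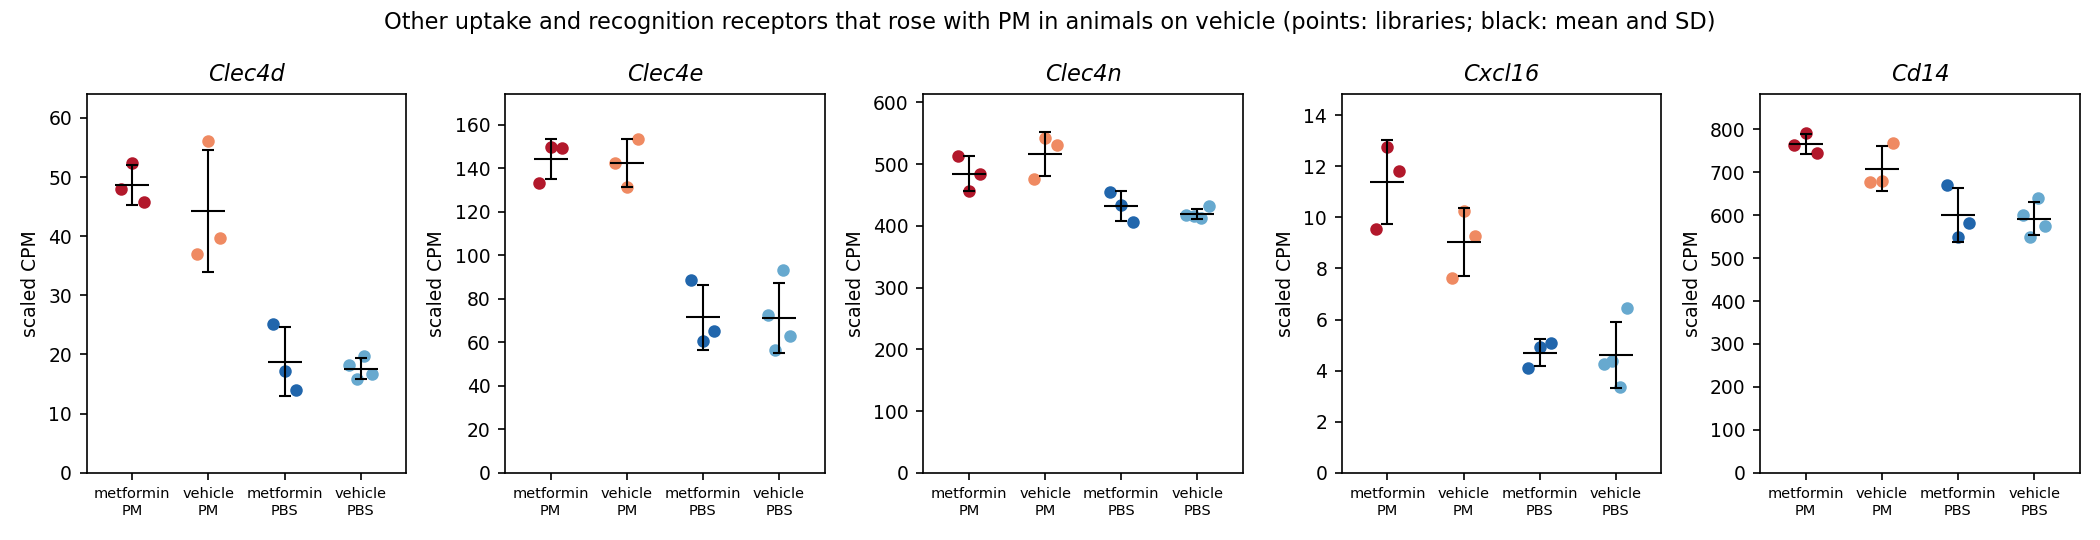
Scaled CPM (y axis, from 0) of 5 other recognition receptors that were called higher with PM in vehicle mice, in the 4 groups (x axis); points are libraries and black lines the mean and SD. For Clec4d the PM libraries (37.0 to 56.1) lie above the PBS libraries (14.02 to 25.2).

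In metformin mice PM also raised Colec12, a class A scavenger receptor with a lectin domain, by 0.53 ± 0.10 (edgeR adjusted p = 0.00158), Mfge8, the bridging protein of apoptotic cell uptake, by 0.78 ± 0.16 (edgeR adjusted p = 0.00269), and Cd14, the lipopolysaccharide co-receptor, by 0.35 ± 0.07 (edgeR adjusted p = 0.00255). Cd14 was called in vehicle mice too, at 0.26 ± 0.07 (edgeR adjusted p = 0.0252), and lost there without vehicle PBS library 2 (0.23), vehicle PBS library 4 (0.25) or vehicle PM library 3 (0.20). With PM, metformin raised Tlr4, the lipopolysaccharide receptor, which had 256, 234 and 212 scaled CPM in metformin PM and 175, 175 and 173 in vehicle PM libraries, by 0.42 ± 0.09 (edgeR adjusted p = 0.00515). It likewise raised C5ar1, the receptor for complement C5a, by 0.36 ± 0.06 (edgeR adjusted p = 0.00151). C5ar1 fell by 0.35 with PM in vehicle mice (SE 0.06, edgeR adjusted p = 0.00112), a comparison that shares the vehicle PM libraries with the first. C5ar1 had 479, 462 and 520 scaled CPM in metformin PM and 386, 355 and 397 in vehicle PM libraries, against 554, 473 and 502 in metformin PBS and 465, 486, 506 and 479 in vehicle PBS libraries, so the vehicle PM libraries were the lowest of all 13.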

How the data were processed

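Per the labels' protocols, polyadenylated RNA from sorted cells was read as single-end 75 bp reads. The submitters' processing notes name bcl2fastq 2.19, TopHat2, HTSeq, edgeR and build mm10. The deposited table gives, per the file headers, raw read counts for 43430 genes in 13 libraries. Its gene coordinates, deposited in the unit "other", were used for positions, overlaps and a length check. Annotation release and strand setting are not given in the sources used here, and the kit marks no strand. Symbols were found for 42462 IDs.

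The counts were tested with edgeR 4.0.16 in R 4.3.3. Genes were kept by filterByExpr (minimum count 10), TMM scaling (trimmed mean of M values) applied, and a quasi-likelihood model fitted with 1 coefficient per group over all 13 libraries (9 residual degrees of freedom). The calculation was tested on simulated data. DESeq2 1.42.0, limma-voom (limma 3.58.1), RLE and upper quartile scaling, no filter, a filter of 5 CPM in 3 libraries, the compared groups alone, a replicate block and leaving out each library were alternatives. Levels per length used exon unions of GENCODE M21, since the deposited length exceeds the gene's span for 1982 genes. Named genes are the 10 receptors, their partners, and per comparison and list at most 4 called genes by lowest adjusted p; of these, mainly calls that held when single libraries were left out are printed. Likeness is Pearson's r of log2 CPM (prior count 2), for the 3 receptors with the lowest adjusted p. The receptors and lists were chosen with earlier results of these data known. No replicate pair agreed within sampling noise, and counting error is part of the spread between libraries. Some results are not reported here.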

Additional observations from a re-analysis of the deposited data

Results flagged for a closer look

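Among 61 groups of 4 libraries checked for a library far from the rest, 1 stood apart, where chance flags about 1 in 20. Cd36, a class B scavenger receptor that takes up oxidized lipids, was at 554 scaled CPM in vehicle PBS library 4, against 648, 636 and 649 in the other vehicle PBS libraries. With metformin in PBS mice, a comparison that uses this group, Cd36 was called lower (-0.37 ± 0.08, edgeR adjusted p = 0.0130). That call was lost without metformin PBS library 4. With PM in metformin mice Cd36 was called higher (0.31 ± 0.08, edgeR adjusted p = 0.0187).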

How the results depend on the processing

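The receptors' values kept their direction and their side of the threshold in 361 of 389 values under other tests, scalings, filters or fits, and in 571 of 650 with 1 library left out, where 9 changed sign. Leaving out libraries, values ranged for PM in vehicle mice from -0.055 to 0.035 (Scarb1) and -0.017 to 0.035 (Fcgr3), for metformin with PBS from -0.12 to 0.055 (Tlr2), for metformin with PM from -0.028 to 0.056 (Mrc1), and for the difference of the PM effects from -0.028 to 0.33 (Msr1). For the other named genes 602 of 623 and 908 of 1040 values were kept. Counts with 1 library left out ranged over 884 to 1666 genes (1522 with all) and 2 to 6 receptors for PM in metformin mice, 359 to 645 (578) and 0 to 3 for PM in vehicle mice, 419 to 954 (820) and 0 to 4 for metformin with PM, 121 to 503 (365) and 1 to 3 for metformin with PBS, and 113 to 262 (171) and 0 to 2 for the difference. With no filter the counts were 813 genes for metformin with PBS, 507 for the difference, and 6 receptors for metformin with PM and 3 for the difference. Receptors that passed only with the filter removed kept nearly the same log2 fold changes. Why their adjusted p was smaller in that fit was not tested. With the compared groups alone there were 200 genes for metformin with PBS and 3 receptors for PM in metformin mice. For the difference, DESeq2, RLE scaling and the stricter filter called 1 receptor each. The cause of these changes was not tested. Depth limits Cd209b and Msr1 most, on which the fewest reads fell.

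Whether the replicate numbers in the titles pair the libraries was not settled, since each group holds few libraries. Same-numbered libraries of compared groups had correlations of deviations from -0.10 to 0.12. For PM against PBS, these all lay below the highest correlation between differently numbered libraries. For metformin against vehicle with PM they lay above it, at 0.12 and 0.049 against -0.051 and -0.0077. For metformin against vehicle with PBS, replicate 4 lay above it (0.075 against 0.0025) and the others below. With the number as a replicate block, metformin with PM gave 535 genes and the difference of the PM effects 2 receptors, Marco and Fcgr1.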
